A study of Mus musculus with 7 samples.

Results

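Pericytes with and without endothelial RNA were taken as the droplet barcodes of mouse brain microvessels that carried pericyte genes, whatever their endothelial RNA. A barcode was a member where at least 500 genes and at most 15% mitochondrial UMIs were counted, where at least 4 of the 8 genes Vtn, Kcnj8, Abcc9, Atp13a5, Higd1b, Ndufa4l2, Pdgfrb and Art3 were detected, and where at most 2 of the 4 smooth muscle genes Acta2, Myh11, Tagln and Pln were detected. This gate took 1263 of 39315 filtered barcodes. Members were then described by the share of their UMIs (unique molecular identifiers, 1 per captured mRNA) that fell on Cldn5, Flt1, Ly6a, Ly6c1 and Pecam1. The 595 members under 0.5% are called low-endothelial pericyte barcodes here, and the 668 members at 0.5% and over are called endothelial-rich pericyte barcodes. The genes of the gate and of the split chose these barcodes, and their values are given as a description only.

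The series holds 7 droplet libraries of single cell RNA from untreated C57Bl6 mice, an inbred laboratory strain with no allele or agent named. Microvessels came from 1 hemisphere without cerebellum, brain stem and olfactory bulbs, were digested with collagenase, and were captured on beads against CD31, the endothelial surface protein that Pecam1 encodes. Mice of 3 libraries were 12 months old and those of 4 libraries 3 months old. Values are listed in this order, 12-month replicates 1 to 3 and then 3-month replicates 1 to 4. The capture was aimed at endothelial cells, and how pericytes came through it was not tested. The labels do not say that the libraries came from separate animals, and the p-values therefore measure the spread between these libraries.

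Pericytes are mural cells that sit in the basement membrane of capillaries and touch the endothelium directly. They depend on PDGF-B released by endothelial cells and read through PDGFRB, keep the blood-brain barrier tight, and set capillary width through ion channels and receptors for vasoactive signals. Their close contact with the endothelium makes the 2 cell types hard to separate by digestion, and a droplet that receives both gives them the same barcode.

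The libraries differed in ways that run with age. Single indexing and Cell Ranger 4.0.0 were used at 12 months, dual indexing and Cell Ranger 6.1.1 at 3 months. Total UMIs ran from 8706961 to 25493316 at 12 months and from 20041722 to 44861008 at 3 months, and 12-month replicate 1 was the shallowest. In the low-endothelial barcodes Xist, the RNA of the inactive X chromosome, stood at 955 and 940 CPM in 3-month replicates 1 and 2 and at 0 in the other 5 libraries. Age, library set, software version and depth therefore cannot be told apart, and sex is not balanced between the ages. No barcode was a member in more than 1 library, and 12 of the 1263 members shared their barcode with a filtered barcode of another library.

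The members numbered 41, 325 and 390 in the 12-month libraries and 90, 98, 189 and 130 in the 3-month libraries. As a share of filtered barcodes this was 0.775%, 5.13% and 4.02% at 12 months, with 95% exact Clopper-Pearson intervals of 0.557 to 1.05, 4.60 to 5.71 and 3.64 to 4.43. At 3 months it was 2.20%, 2.37%, 3.24% and 3.31%, with intervals of 1.77 to 2.69, 1.93 to 2.88, 2.80 to 3.72 and 2.78 to 3.92. The intervals cover counting error only. The lowest and the 2 highest shares were those of the 12-month libraries, and the 3-month libraries lay between them. The mean share was 3.31% ± 2.26 (SD, n = 3) at 12 months and 2.78% ± 0.577 (n = 4) at 3 months, a difference of 0.529 percentage points (two-sided exact permutation test, p = 0.686, smallest possible p 0.0286). Without 12-month replicate 2 the difference was -0.383.

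Detection of the gate and split genes is described here and does not check the label, since these genes chose the barcodes. Of the gate genes, 8 were detected in 362 members, 7 in 351, 6 in 256, 5 in 166 and the minimum of 4 in 128, while 129 barcodes with 3 of them fell just outside. A further 485 barcodes had at least 4 pericyte genes and 3 or 4 of the smooth muscle genes and were left out. Vtn, the gene of the adhesive matrix protein vitronectin, was detected in 592 of 595 low-endothelial and 660 of 668 endothelial-rich barcodes. Pdgfrb, the PDGF-B receptor, was detected in 97.5% and 91.6%. Art3 was the least often detected, in 60.2% and 57.0%. Pecam1, the captured surface protein, had a UMI in 4.54% of the low-endothelial and 83.7% of the endothelial-rich barcodes.

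Few members lay near the border of the endothelial share. No UMI of the 5 endothelial genes was found in 299 members (23.7%), and 31 members (2.45%) had a share between 0.4% and 0.6%. The members nearest to the border had shares of 0.481%, 0.488% and 0.489% below it and 0.516%, 0.516% and 0.524% above it. Endothelial-rich barcodes made up 53.7%, 71.1% and 45.1% of the members at 12 months, with exact intervals of 37.4 to 69.3, 65.8 to 75.9 and 40.1 to 50.2. They made up 50.0%, 50.0%, 49.7% and 39.2% at 3 months, with intervals of 39.3 to 60.7, 39.7 to 60.3, 42.4 to 57.1 and 30.8 to 48.2. The ages overlapped, and the means of 56.6% ± 13.2 and 47.2% ± 5.34 differed by 9.38 percentage points (two-sided exact permutation test, p = 0.286, adjusted p = 0.571 over 2 tests). Among barcodes with at least 1000 genes the share was 85.6% ± 8.07 against 52.5% ± 6.76 (unadjusted exact permutation p = 0.0286, the smallest possible). That filter left 2, 21 and 52 of 19, 94 and 214 low-endothelial barcodes at 12 months. At 3 months it left 33, 43, 73 and 67 of 45, 49, 95 and 79. In barcodes thinned to 1000 UMIs the share was 59.1% ± 20.5 against 22.9% ± 6.09 (unadjusted exact permutation p = 0.0286). Endothelial-rich barcodes then numbered 10, 140 and 108 in place of 22, 231 and 176 at 12 months. At 3 months they numbered 14, 8, 25 and 18 in place of 45, 49, 94 and 51. The direction was the same, but both settings removed members unevenly between the ages, so their p-values do not isolate age. Whether depth sets the size of the difference was not tested.

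**Figure D1:**
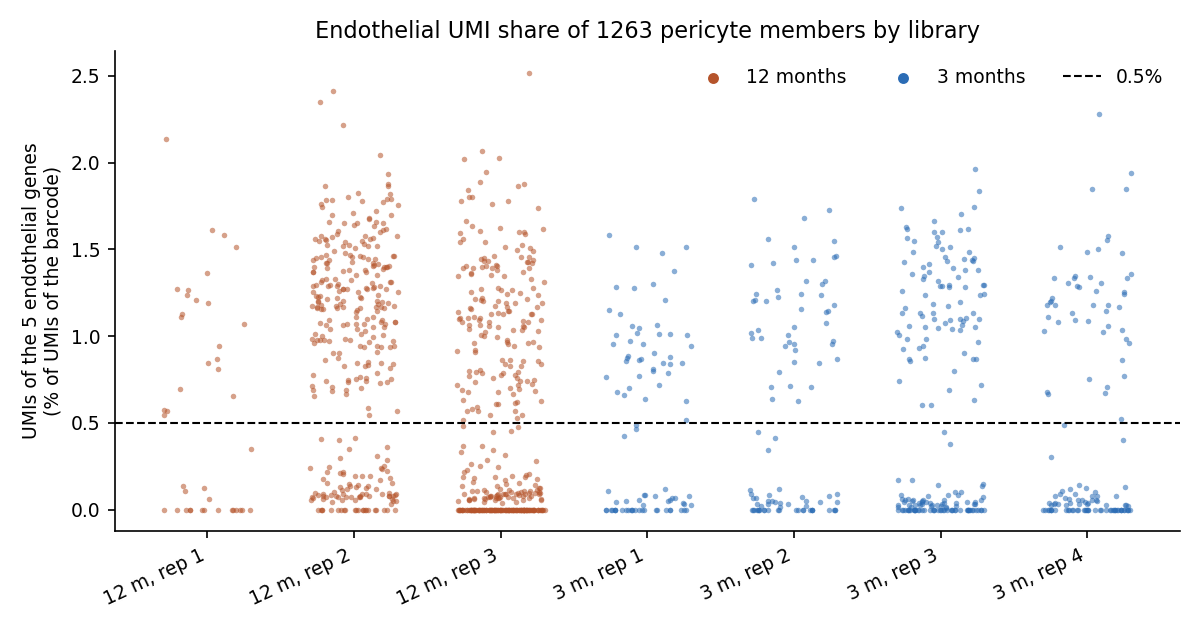
UMI share of the 5 endothelial split genes (percent of the UMIs of a barcode, vertical axis) in each of the 1263 pericyte barcodes by library (horizontal axis). Each point is 1 barcode, orange at 12 months and blue at 3 months, and the dashed line is the 0.5% border, around which 2.45% of the members lie between 0.4% and 0.6%.

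Other barcodes reached this share less often than the pericyte barcodes did. Among smooth muscle barcodes, defined by at least 3 of the 4 smooth muscle genes, 26.1% ± 7.74 (SD, n = 7 libraries) were at 0.5% and over, against 51.3% ± 9.88 of the pericyte barcodes. The difference was 25.1 percentage points (SD 6.53) and had the same sign in 7 of 7 libraries. Among barcodes of microglia, the resident macrophages of the brain, defined by at least 4 of 8 microglia markers and at most 1 pericyte gate gene, 13.3% ± 6.48 were at 0.5% and over. That lay 38.0 percentage points (SD 7.57) lower, again in 7 of 7 libraries. These 2 comparisons were chosen after the data were seen, and unlike gates made the groups, so both are descriptions. The median share of the 5 genes in microglia barcodes was 0 to 0.0678% over the libraries, against 0 to 0.0827% in the low-endothelial pericyte barcodes.

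Endothelial-rich barcodes held more RNA. Their median was 1731, 4115 and 4050 UMIs at 12 months and 8551, 18463, 16550 and 14572 at 3 months. The low-endothelial barcodes held 850, 1390 and 1341 UMIs at 12 months and 2216, 3009, 2719 and 2769 at 3 months. In every library the endothelial-rich median was higher, by 2.04, 2.96 and 3.02 times at 12 months and 3.86, 6.14, 6.09 and 5.26 times at 3 months. Endothelial barcodes, with at least 4 of the 5 split genes, at most 1 pericyte gate gene and at most 1 smooth muscle gate gene, held 1144, 2794 and 1806 UMIs at 12 months and 3124, 5540, 4754 and 5010 at 3 months. The endothelial-rich median was 0.868 to 2.21 times the sum of the low-endothelial and the endothelial median of the same library. By the doublet caller scrublet, 136 of 668 endothelial-rich barcodes (20.4%) were among the highest scores, against 5 of 595 low-endothelial barcodes (0.840%). The highest scores were a set top share of each library, 0.8% per 1000 filtered barcodes. By library the endothelial-rich share ran from 6.67% to 34.1%. Other groups were flagged too, 4.72% of endothelial, 9.98% of smooth muscle and 10.3% of microglia barcodes.

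Counted as UMIs per barcode, the pericyte RNA differed less between the ranges than the total UMIs did. The gate asked for at least 4 detected pericyte genes in both ranges. The 29 pericyte genes outside the gate gave a median of 21, 35 and 38 UMIs in low-endothelial barcodes at 12 months, and 35, 84, 62 and 73 at 3 months. In endothelial-rich barcodes they gave 19, 47 and 54 at 12 months, and 29, 112, 79.5 and 97 at 3 months. The ratio of endothelial-rich to low-endothelial barcodes was 0.829 to 1.42 within libraries. It was below 1 in 12-month replicate 1 and 3-month replicate 1 and 1.28 to 1.42 in the other libraries. The 30 endothelial genes outside the split gave 52, 130 and 120 UMIs in endothelial-rich barcodes at 12 months and 358, 623, 627 and 554 at 3 months. That was 1.07 to 2.82 times the median of the endothelial barcodes of the same library.

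**Figure D2:**
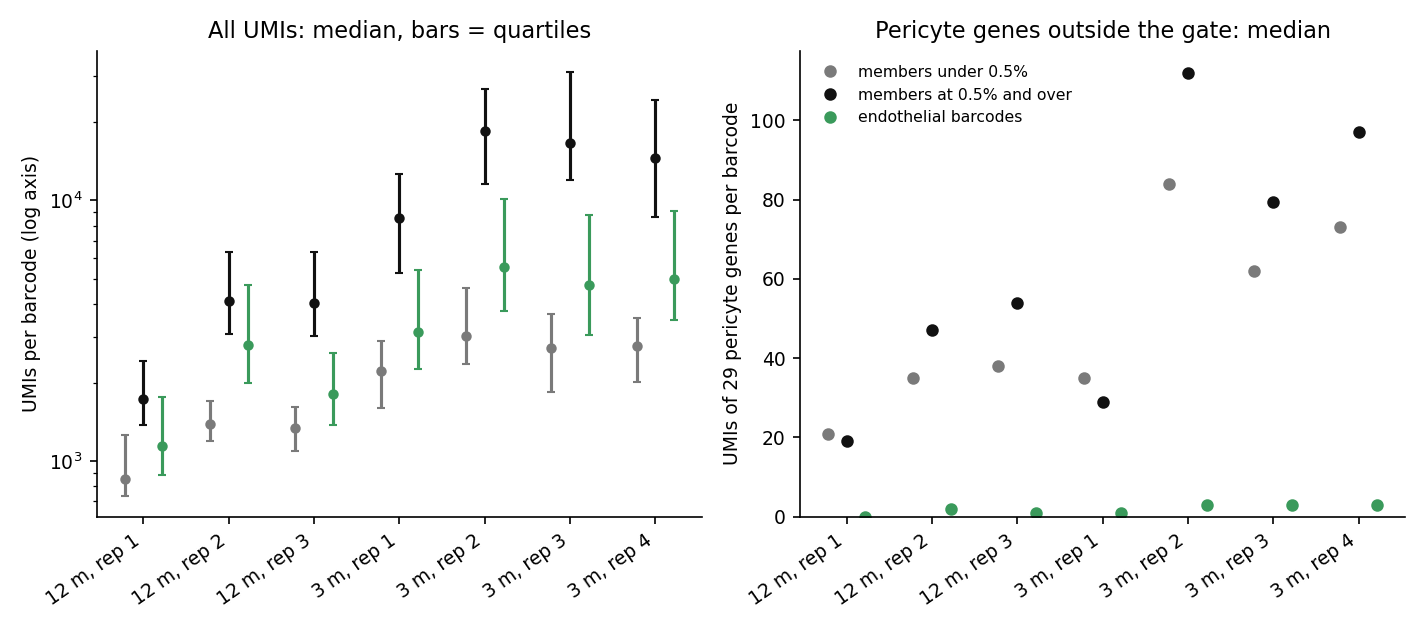
Left, median UMIs per barcode with quartiles (log axis) in low-endothelial (grey) and endothelial-rich (black) pericyte barcodes and endothelial barcodes (green), by library. Right, median UMIs of the 29 pericyte genes outside the gate per barcode (linear axis), which lay between 19 and 112 in both pericyte ranges and near 0 in endothelial barcodes.

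Levels were taken from UMIs summed over the barcodes of a range in a library and given as counts per 1000000 UMIs of that sum (CPM). In such a sum, more RNA in each barcode and more barcodes with the RNA cannot be told apart. CPM were compared for 1 gene at a time, between barcodes or libraries, and never between genes, whose lengths differ. All comparisons between the ranges and with other barcodes are descriptions, since gates on these barcodes made the groups.

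Pericyte genes that the gate did not use marked both ranges. In low-endothelial barcodes 27 of the 29 stood above the endothelial barcodes with no overlap over 7 libraries, against 7.41% of all genes, with a median ratio of 53.7. In endothelial-rich barcodes 25 of 29 did so, against 3.51% of all genes. Between the ranges, 20 of the 29 were lower in endothelial-rich barcodes with no overlap (3.80% of all genes), with a median ratio of 0.260. Foxc1 and Foxf2, forkhead factors of mural and endothelial development, were the 2 that did not stand above endothelial barcodes. Foxc1 had a mean of 225 CPM in low-endothelial barcodes, 228 in endothelial-rich and 195 in endothelial barcodes, and Foxf2 had means of 84.8, 153 and 137 CPM.

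Promoters are shown for 3 genes whose levels are described next, a G protein regulator, a matrix chain and a nitric oxide receptor subunit of pericytes. Each is the 250 bases before the RefSeq start (GRCm38.p6), 5′ to 3′ on the strand of the gene, and holds no annotated exon. The letters TGGGAA, the core of sites bound by the Notch partner RBPJ, were searched on both strands and are set in capitals.
Rgs5 promoter, chr1:169655251-169655500, + strand: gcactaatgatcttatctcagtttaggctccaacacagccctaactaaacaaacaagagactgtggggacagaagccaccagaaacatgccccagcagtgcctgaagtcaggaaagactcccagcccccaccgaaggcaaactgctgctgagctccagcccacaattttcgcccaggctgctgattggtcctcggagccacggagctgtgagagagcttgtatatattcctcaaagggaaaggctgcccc
Lama2 promoter, chr10:27616943-27617192, - strand: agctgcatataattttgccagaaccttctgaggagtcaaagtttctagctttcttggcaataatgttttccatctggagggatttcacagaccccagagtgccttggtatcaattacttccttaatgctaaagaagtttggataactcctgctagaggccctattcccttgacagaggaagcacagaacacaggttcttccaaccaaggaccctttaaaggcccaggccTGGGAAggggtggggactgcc
Gucy1b1 promoter, chr3:82074712-82074961, - strand: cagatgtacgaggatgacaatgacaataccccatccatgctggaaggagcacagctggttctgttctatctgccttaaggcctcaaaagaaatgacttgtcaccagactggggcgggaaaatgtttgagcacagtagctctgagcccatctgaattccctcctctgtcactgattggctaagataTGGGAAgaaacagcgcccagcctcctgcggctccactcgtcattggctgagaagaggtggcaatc
The Rgs5 window holds no match, and the Lama2 and Gucy1b1 windows hold 1 each. The core was found in 7094 of 32851 promoters of this length (21.6%) and in 5 of 33 promoters (15.2%) of the 24 listed pericyte genes that RefSeq matched by symbol. A match is a description of the letters and not a bound site.

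Rgs5 (chromosome 1, 169655501 to 169695813, GRCm38), an inhibitor of G protein signals and a classic pericyte gene, stood at 9592, 8277 and 8249 CPM at 12 months in low-endothelial barcodes. At 3 months it stood at 5427, 9986, 8614 and 11145 CPM, with the 12-month values inside the 3-month range. In endothelial-rich barcodes the level was 4066, 3488 and 3813 CPM at 12 months and 980, 2822, 2085 and 2457 CPM at 3 months. All 7 were below the lowest low-endothelial value and above the 25.2 to 95.5 CPM of endothelial barcodes. Smooth muscle barcodes had a mean of 2122 CPM.

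Notch3, the mural receptor for endothelial Jagged ligands, stood at 769, 1129 and 880 CPM at 12 months and 731, 819, 883 and 1020 CPM at 3 months in low-endothelial barcodes. Its mean there was 890 CPM ± 141 (SD, n = 7), against 195 in endothelial-rich, 1.62 in endothelial and 403 in smooth muscle barcodes. Heyl, a target of Notch signals, had means of 249, 53.0, 0.427 and 116 CPM in the same order. Cspg4, the NG2 proteoglycan used as a pericyte marker in histology, had means of 572, 145, 0.572 and 272 CPM. Cox4i2, the oxygen-tuned subunit of cytochrome c oxidase, had 698, 179, 1.66 and 126 CPM. These genes kept 1 order, low-endothelial highest and endothelial barcodes lowest.

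Lama2, the laminin alpha 2 chain of the basement membrane, stood at 154, 339 and 352 CPM at 12 months and 249, 362, 326 and 355 CPM at 3 months in low-endothelial barcodes. The endothelial-rich barcodes held it at 50.0, 96.9 and 84.2 CPM and at 12.0, 65.1, 48.7 and 53.1 CPM. Its mean was 0.302 CPM in endothelial and 23.2 CPM in smooth muscle barcodes, so it also separated the mural barcodes from each other. Of 29 pericyte genes, 20 stood above smooth muscle barcodes with no overlap (4.17% of all genes), while 13 of 15 smooth muscle genes outside the gate stood below (5.25% of all genes). Of 31 basement membrane and matrix genes compared, 10 stood above and 2 below endothelial barcodes (7.41% and 10.2% of all genes).

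Genes that receive nitric oxide signals were not used by the gate. Of 15 genes of nitric oxide and cyclic nucleotide signalling compared, 13 stood above and 1 below endothelial barcodes with no overlap, with a median ratio of 8.40. Over all genes 7.41% stood above and 10.2% below. Gucy1b1, the beta subunit of the nitric oxide receptor guanylate cyclase, stood at 1282, 693 and 823 CPM at 12 months and 658, 709, 842 and 856 CPM at 3 months in low-endothelial barcodes. The endothelial-rich values were 400, 236 and 278 CPM and 139, 136, 116 and 168 CPM, and those of endothelial barcodes 1.85 to 6.05 CPM. Gucy1a1, its alpha partner, had means of 641, 122, 1.83 and 445 CPM in low-endothelial, endothelial-rich, endothelial and smooth muscle barcodes. Pde5a, the phosphodiesterase that breaks down cyclic GMP, stood at 154 to 282 CPM in low-endothelial and 136 to 426 CPM in smooth muscle barcodes, with overlap. Pde8b, a phosphodiesterase of cyclic AMP, stood in contrast at 410 CPM in low-endothelial and 25.5 CPM in smooth muscle barcodes.

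Receptors and transporters followed. Of 16 receptors for vasoactive signals compared, 8 stood above endothelial barcodes and 1 below, and of 17 ion channels and pumps 9 stood above and 2 below. The shares over all genes were 7.41% above and 10.2% below. Ednra, the endothelin receptor that drives contraction, stood at 256, 332 and 259 CPM at 12 months and 273, 236, 264 and 323 CPM at 3 months in low-endothelial barcodes. Its mean was 278 CPM ± 35.9 there, 53.1 in endothelial-rich, 0.222 in endothelial and 139 in smooth muscle barcodes. P2ry14, a receptor for nucleotide sugars, had means of 436, 127, 0.297 and 53.2 CPM. Slc6a20a, a carrier of proline-like amino acids, had means of 401, 101, 0.778 and 20.7 CPM. All 3 were highest in low-endothelial and lowest in endothelial barcodes by these means.

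Endothelial genes outside the split gave the mirror image. Of 30, 28 stood below endothelial barcodes in the low-endothelial range (10.2% of all genes), at a median ratio of 0.115. In the endothelial-rich range 27 of 30 stood above the low-endothelial barcodes (5.79% of all genes). None of the 30 stood below endothelial barcodes with no overlap there, but only 0.143% of all genes did, so this count is near that share. Cdh5, the cadherin of endothelial junctions, stood at 51.3, 34.6 and 28.8 CPM at 12 months and 136, 126, 3.43 and 119 CPM at 3 months in low-endothelial barcodes. Its endothelial-rich level was 450, 414 and 369 CPM and 432, 622, 563 and 608 CPM at the same ages, against 538 to 707 CPM in endothelial barcodes. Slco1a4, an organic anion carrier of the blood-brain barrier, stood at 47.8 to 113 CPM in low-endothelial, 992 to 1530 CPM in endothelial-rich and 925 to 2176 CPM in endothelial barcodes. The median of the 30 genes in the endothelial-rich range was 81.1%, 78.1% and 73.3% of the endothelial barcodes at 12 months and 70.6%, 87.4%, 88.1% and 82.9% at 3 months. In the low-endothelial range their sum was 6.77% to 13.4% of that in endothelial barcodes. The gene of the list highest against endothelial barcodes reached 49.6% to 153% of its level there, so the genes did not share 1 ratio. Microglia barcodes of any split share reached 13.4% to 44.6% of the same sum. They had medians of 1102 to 5151 UMIs, against 850 to 3009 in low-endothelial barcodes.

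**Figure D3:**
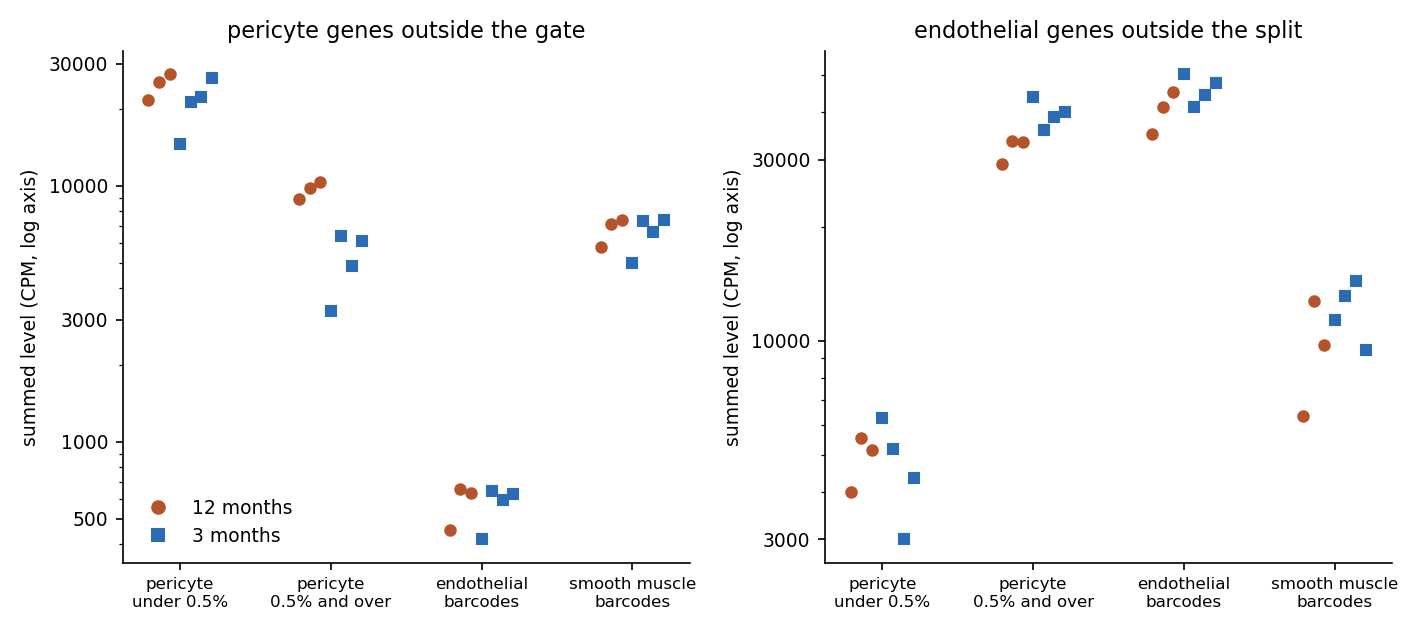
Summed CPM (log axis) of 29 pericyte genes outside the gate (left) and 30 endothelial genes outside the split (right) in 4 kinds of barcodes (horizontal axis). Each point is 1 library, orange circles at 12 months and blue squares at 3 months, and the endothelial-rich pericyte barcodes stand near the endothelial barcodes in the right panel and between pericyte and endothelial barcodes in the left panel.

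MHC class I genes present peptides on the cell surface. Of 11 compared, 8 stood below endothelial barcodes in the low-endothelial range (10.2% of all genes), and 6 stood higher in the endothelial-rich than in the low-endothelial range (5.79% of all genes). B2m, the light chain of these molecules, had means of 420 CPM in low-endothelial, 1156 in endothelial-rich and 1278 in endothelial barcodes. Klf2, a factor induced by blood flow in endothelium, had means of 307, 2599 and 2782 CPM. Immediate early genes, which respond within minutes to stress and stimulation, took a median of 1.99%, 0.271% and 0.206% of the UMIs of a low-endothelial barcode at 12 months and 0.162%, 0.255%, 0.253% and 0.157% at 3 months. In endothelial-rich barcodes they took 1.45%, 1.62% and 1.69% at 12 months and 1.27%, 1.49%, 1.38% and 1.22% at 3 months. The 2 ranges overlapped through 12-month replicate 1 alone, whose 19 low-endothelial barcodes held more of these genes than its 22 endothelial-rich ones.

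The endothelial-rich profile was set beside a computed mix of the low-endothelial and the endothelial profile of the same library. The split genes alone fixed the endothelial part of the mix, at 72.3%, 77.8% and 69.2% at 12 months and 73.9%, 83.4%, 82.0% and 80.5% at 3 months. Of 2666 genes with at least 50 CPM in one range in every library, 2647 lay within 1.5-fold of the mix by the median over libraries. The mix was mostly endothelial, and over 9065 genes the median ratio of endothelial-rich to endothelial barcodes was 1.01. Closeness to the endothelial profile alone was not counted, so the count of 2647 cannot tell the mix from that profile. In all 7 libraries 89 genes lay above the mix (3.34%) and 38 below (1.43%). Of the 28 pericyte genes among them, 0 lay above and 0 below in all 7 libraries, with a median log2 ratio of 0.02. Their median per library ran from -0.32 in 3-month replicate 1 to 0.48 in 12-month replicate 2 and in 3-month replicate 2. Of the 30 endothelial genes, 1 lay above.

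Among genes on the same side of the mix in all 7 libraries, the distances were small for most. Sh3bp5, a regulator of RAB11, lay above by a median log2 of 0.47 (0.08 to 1.05 over libraries), and Rflnb, a partner of filamin, by 0.45 (0.15 to 0.55). Gatm, the first enzyme of creatine synthesis, lay above by 0.38 (0.11 to 0.70). Edn3, an endothelin ligand, lay above by 0.32 (0.06 to 0.52). Of 68 nuclear genes of the respiratory chain 4 lay above the mix in all 7 libraries, beside 3.34% of all genes compared. Below the mix were AY036118 (-1.63, from -2.10 to -0.75) and Lars2, a mitochondrial leucyl-tRNA synthetase (-1.25, from -1.64 to -0.32). The next, Rap2a, a small GTPase, lay at -0.54 (-1.17 to -0.01), so only these 2 of the 10 lowest lay beyond 1.5-fold. The mix used the same barcodes as the split, and no test was made of it.

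Age was compared with edgeR's quasi-likelihood test on the summed UMIs, with Benjamini-Hochberg adjustment over all genes tested and the 12-month minus 3-month difference on the log2 scale. Over all members 152 of 9755 genes passed an adjusted p of 0.05 (1.56%), 109 higher (1.12%) and 43 lower (0.441%) at 12 months. In low-endothelial barcodes 50 of 4083 passed (1.22%), 17 higher (0.416%) and 33 lower (0.808%). In endothelial-rich barcodes 149 of 8965 passed (1.66%), 132 higher (1.47%) and 17 lower (0.190%). The lists shared 8 genes, 16.0% of the first and 5.37% of the second. The difference between the ranges was tested as an interaction, and 26 of 6612 genes passed (0.393%), 20 with a higher (0.302%) and 6 with a lower (0.0907%) difference in the endothelial-rich range. The counts rested on single libraries: without 12-month replicates 1, 2 and 3 the low-endothelial count was 92, 12 and 4, and without 3-month replicate 2 it was 28. The endothelial-rich count was 13 without 12-month replicate 2 or replicate 3, 482 without 3-month replicate 1 and 19 without 3-month replicate 3.

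Genes lower at 12 months in low-endothelial barcodes included matrix and growth factor genes. Col3a1 (chromosome 1, 45311538 to 45349706), the chain of type III collagen, stood at 0, 83.1 and 25.6 CPM at 12 months and 771, 357, 474 and 422 CPM at 3 months. It was found in 0, 5 and 6 barcodes at 12 months and in 23, 24, 35 and 28 at 3 months. The ages did not overlap, and the log2 difference was -3.48 ± 0.45 (SE, adjusted p = 9.04e-05). Without 12-month replicate 3 it was -2.86 (adjusted p = 0.0533). The endothelial-rich difference was -1.58 (adjusted p = 0.0816), and the difference between the ranges was not past the threshold (1.70, adjusted p = 0.223).

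Angpt2 (chromosome 8, 18690263 to 18741562), a ligand that loosens the contact of pericytes and endothelium, stood at 51.3, 41.6 and 32.0 CPM at 12 months and 144, 161, 144 and 127 CPM at 3 months. The ages did not overlap, and the log2 difference was -1.98 ± 0.35 (adjusted p = 0.00389, and 0.414 without 12-month replicate 3). Steap4, a metalloreductase, was the 1 pericyte gene of 29 called in this range (0.808% of all genes were lower). It stood at 103, 41.6 and 83.2 CPM against 177, 382, 302 and 251 CPM, with a log2 difference of -2.03 ± 0.35 (adjusted p = 0.00329). Without 12-month replicate 2 or 3 its adjusted p was 0.110 or 0.0978.

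Col1a2, the second chain of type I collagen, stood at 154, 145 and 122 CPM at 12 months and 265, 256, 299 and 307 CPM at 3 months. Its log2 difference of -1.10 ± 0.26 passed (adjusted p = 0.0383) but was lost in 5 of the 7 fits that left out 1 library, up to an adjusted p of 0.630. Mdk, the heparin-binding growth factor midkine, stood at 0, 13.9 and 3.20 CPM against 161, 90.5, 99.6 and 31.9 CPM, which again did not overlap. Txnip, an inhibitor of thioredoxin, stood at 410, 111 and 112 CPM against 522, 613, 539 and 430 CPM. The pericyte genes as a whole had a median log2 difference of 0.41 here, beside -0.03 over all genes, and 0 of 29 passed in the higher direction (0.416% of all genes). Of 25 basement membrane and matrix genes tested, 0 rose and 1 fell, Col3a1 (0.416% and 0.808% of all genes).

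Markers of fibroblasts, the neighbouring cells that make these collagens, were summed in the same barcodes. The 10 markers gave 388 to 627 CPM at 12 months and 513 to 718 CPM at 3 months, with overlap. Endothelial barcodes gave 116 to 250 and 126 to 177 CPM. Pdgfra and Dpt were at 0 in all 7 libraries, and the other markers were not. Of 6 compared, 3 stood above and 1 below endothelial barcodes with no overlap (7.41% and 10.2% of all genes). Col1a2 is itself on this list, and of 5 tested it was the 1 called by age (0.808% of all genes were lower). Col1a1, of the same list, was at 0 in the 12-month libraries and at 5.03 to 48.2 CPM at 3 months. Their part in the collagen difference was not tested. Median UMIs per low-endothelial barcode were 850 to 1390 at 12 months and 2216 to 3009 at 3 months, and with these sums thinned to the smallest 0 of 262 genes tested passed in edgeR, while 27 had an unadjusted p under 0.05.

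Some genes were higher at 12 months in both ranges. Uchl1 (chromosome 5, 66676091 to 66687234), a deubiquitinating enzyme, stood at 462, 561 and 685 CPM at 12 months and 153, 95.5, 213 and 343 CPM at 3 months in low-endothelial barcodes. In endothelial-rich barcodes it stood at 167, 207 and 206 CPM against 47.8, 39.8, 54.3 and 68.6 CPM. The ages overlapped in neither range, and the log2 differences were 1.52 ± 0.31 (adjusted p = 0.0137) and 1.93 ± 0.24 (adjusted p = 0.000506). Pla1a, a phospholipase of phosphatidylserine, stood at 205, 249 and 294 CPM against 64.2, 50.3, 134 and 147 CPM in the low-endothelial range. Its log2 differences were 1.34 ± 0.31 (adjusted p = 0.0271) and 1.98 ± 0.24 (adjusted p = 0.000528). The low-endothelial calls were lost for Uchl1 without 12-month replicate 2 or 3 or 3-month replicate 2 (adjusted p 0.135, 0.414 and 0.0574). They were lost for Pla1a without the same libraries (0.147, 0.630 and 0.0882). Over the 7 such fits in endothelial-rich barcodes both genes passed in 7, with adjusted p up to 0.0176 and 0.0390. Pid1, an adaptor that dampens insulin signals, stood at 205, 263 and 278 CPM against 80.3, 90.5, 127 and 159 CPM and passed in both ranges (log2 1.15 and 1.84). Its low-endothelial call held in 3 of 7 fits without 1 library (adjusted p up to 0.575) and its endothelial-rich call in 6 of 7 (up to 0.0833). Both ranges came from the same 7 libraries. In endothelial-rich barcodes the 29 pericyte genes outside the gate had a median log2 difference of 1.08. The part of that shift in the endothelial-rich calls of Uchl1, Pla1a and Pid1 was not tested.

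**Figure D4:**
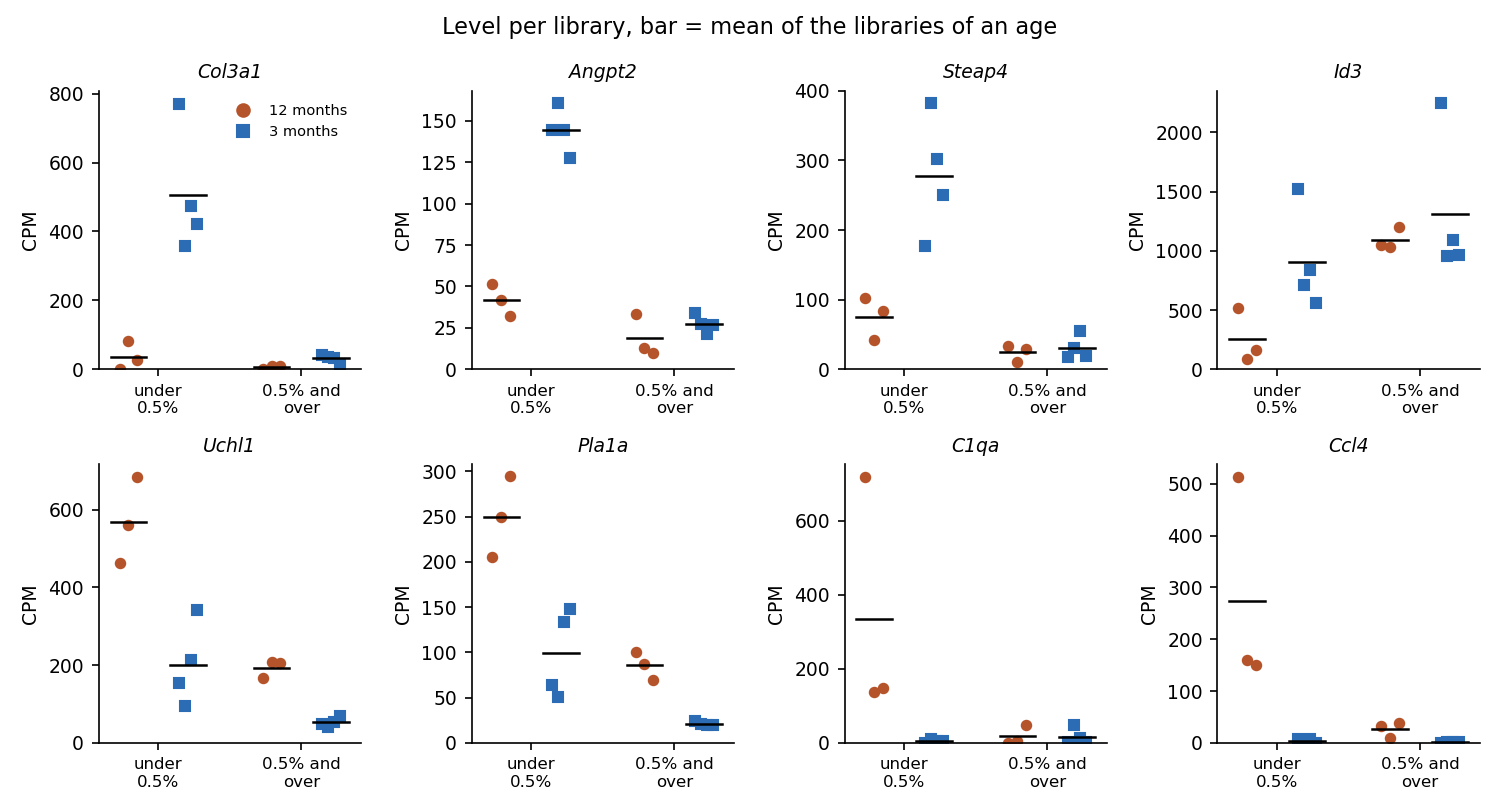
CPM (linear axes from 0) of 8 genes in low-endothelial (left of each panel) and endothelial-rich (right) pericyte barcodes. Each point is 1 library, orange circles at 12 months and blue squares at 3 months, and the bar is the mean of an age. Col3a1, Angpt2 and Steap4 lie lower and Uchl1 and Pla1a higher at 12 months in the low-endothelial range, without overlap of the ages.

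Microglial genes rose at 12 months in low-endothelial barcodes. All 5 of the microglia markers tested passed (0.416% of all genes were higher), and in the endothelial-rich range 0 of 5 did (1.47% of all genes). The interaction passed for 2 of 6, C1qa and C1qb, both with a lower difference in the endothelial-rich range (0.0907% of all genes). C1qa, a chain of the first complement component, stood at 718, 139 and 147 CPM at 12 months and 0, 10.1, 3.43 and 3.98 CPM at 3 months, a log2 difference of 5.19 ± 0.61 (adjusted p = 4.63e-05). Ccl4, a chemokine of activated microglia, stood at 513, 159 and 150 CPM against 8.03, 0, 6.87 and 0 CPM. Csf1r, the receptor that microglia need to survive, stood at 308, 55.4 and 67.2 CPM and was at 0 in all 3-month libraries. The 8 microglia markers summed to 679 to 2770 CPM at 12 months and 51.5 to 75.7 CPM at 3 months. In endothelial barcodes the same sum was also higher at 12 months without overlap, 142 to 731 CPM against 77.1 to 114 CPM. In smooth muscle barcodes it was 110 to 780 CPM against 51.6 to 164 CPM, with overlap. Microglia barcodes numbered 1223, 137 and 1195 at 12 months and 207, 212, 167 and 140 at 3 months. At least 2 of the 8 markers were detected in 28 of 595 low-endothelial barcodes (4.71%), 3, 3 and 19 at 12 months and 1, 1, 1 and 0 at 3 months. The same held for 47 of 668 endothelial-rich barcodes (7.04%), 0, 9 and 20 at 12 months and 3, 3, 9 and 3 at 3 months.

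The part of low-endothelial barcodes with at least 2 markers in the microglial calls was not tested, since leaving them out removes the markers by construction. For the other genes, a setting without barcodes holding at least 2 microglia markers was added after the data were seen. The low-endothelial count was then 46 in place of 50, with 39 genes in common. Col3a1 stayed at -3.30 (adjusted p = 8.96e-05) and Uchl1 at 1.55 (adjusted p = 0.00988).

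Pericyte genes stood at higher CPM at 12 months in endothelial-rich barcodes. There 14 of 29 passed, all higher (1.47% of all genes were), 27 of 29 lay above 0, and the median log2 difference was 1.08 beside -0.04 over all genes. Rgs4, a G protein regulator like Rgs5, stood at 333, 411 and 391 CPM against 125, 184, 143 and 168 CPM, a log2 difference of 1.31 ± 0.22 (adjusted p = 0.00597). Cspg4 stood at 117, 248 and 274 CPM against 77.7, 109, 75.9 and 113 CPM (1.34 ± 0.26, adjusted p = 0.0162). Notch3 stood at 217, 275 and 310 CPM against 89.6, 180, 143 and 153 CPM (0.97 ± 0.24, adjusted p = 0.0490). S1pr3, a receptor for sphingosine phosphate, stood at 150, 123 and 160 CPM against 37.8, 68.0, 44.7 and 78.5 CPM (1.32 ± 0.25, adjusted p = 0.0144). The ages did not overlap for these 4 genes. None of the 4 passed in all 7 fits without 1 library, with adjusted p up to 0.145, 0.245, 0.435 and 0.209 in the order given. The gate asked for at least 4 detected pericyte genes at any depth. Median UMIs of these barcodes were 1731 to 4115 at 12 months and 8551 to 18463 at 3 months. Counted as UMIs per barcode, the 29 genes had medians of 19 to 54 at 12 months and 29 to 112 at 3 months. The part of depth and of the gate in these calls, and in those of the next paragraph, was not tested.

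Channels and receptors that set vessel tone were also among the genes higher at 12 months in endothelial-rich barcodes. Of 16 ion channels and pumps 7 passed, all higher at 12 months (1.47% of all genes were), among them Ano1, a calcium-gated chloride channel, and Cacna1c, a voltage-gated calcium channel. Ano1 stood at 83.3, 120 and 111 CPM against 19.9, 60.2, 30.7 and 39.8 CPM. Of 10 vasoactive receptors 4 passed, and of 13 nitric oxide and cyclic nucleotide genes 3 passed, again all higher, beside the same 1.47% of all genes. Casq2, a calcium store protein, stood at 150, 130 and 163 CPM against 17.9, 31.1, 25.6 and 39.8 CPM (2.35 ± 0.24, adjusted p = 8.12e-05) and passed in all 7 fits without 1 library.

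The amount of pericyte RNA relative to endothelial RNA moved with these calls. The 29 pericyte genes summed to 8848 to 10312 CPM at 12 months and 3243 to 6355 CPM at 3 months in endothelial-rich barcodes, and the endothelial genes to 29294 to 33550 CPM and 35992 to 43848 CPM, both without overlap. In low-endothelial barcodes the pericyte sum overlapped, with 21697 to 27333 CPM against 14602 to 26420 CPM. The endothelial part of the mix was 69.2% to 77.8% at 12 months and 73.9% to 83.4% at 3 months. Between the ranges, 1 of 29 pericyte genes passed the interaction test with a higher difference, beside 0.302% of all genes. It was Rgs5 (1.06 ± 0.25, adjusted p = 0.0424, and up to 0.367 without 1 library). The part of the endothelial RNA in the 14 calls was not tested. Endothelial genes outside the split gave 1 call of 30, beside 0.190% of all genes lower at 12 months. It was Slc7a5, a large neutral amino acid carrier, lower at 12 months (-1.27, adjusted p = 0.0237, and up to 0.309 without 1 library).

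**Figure D5:**
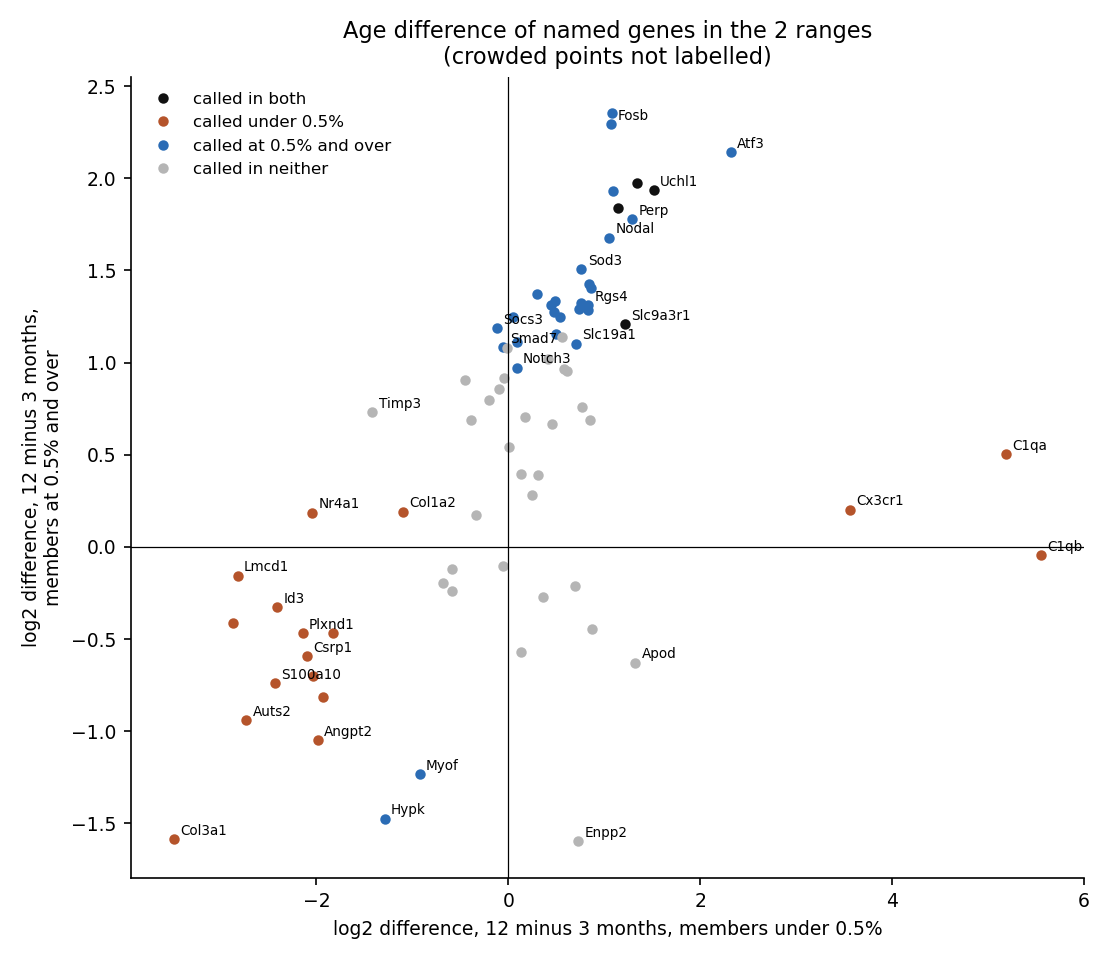
Log2 difference of 12 minus 3 months in low-endothelial (horizontal axis) and endothelial-rich (vertical axis) pericyte barcodes for named and listed genes tested in both. Each point is 1 gene, black where it passed in both ranges, orange in the low-endothelial and blue in the endothelial-rich range, and grey in neither. Uchl1 lies at 1.52 and 1.93, Col3a1 at -3.48 and -1.58, and C1qa at 5.19 and 0.50.

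Of the immediate early genes, 5 of 22 were higher at 12 months in endothelial-rich barcodes, Atf3, Egr1, Fos, Fosb and Socs3 (1.47% of all genes were higher). In low-endothelial barcodes 0 of 19 were higher, which is near the 0.416% of all genes that were. There 2 of the 19 were lower, Ccn1 and Nr4a1 (0.808% of all genes were lower). Fosb, a subunit of the AP-1 factor, stood at 1000, 1304 and 1626 CPM against 155, 481, 248 and 194 CPM (2.29 ± 0.33, adjusted p = 0.00247). In low-endothelial barcodes it stood at 2000, 242 and 278 CPM against 96.3, 452, 378 and 39.8 CPM, with overlap, and its interaction did not pass (1.37, adjusted p = 0.275). The first value is that of 12-month replicate 1, whose 19 low-endothelial barcodes were the fewest. Nr4a1, an orphan nuclear receptor of the same list, was lower at 12 months in low-endothelial barcodes, at 51.3, 48.5 and 35.2 CPM against 48.2, 211, 223 and 155 CPM. The ages overlapped, and the call (-2.05, adjusted p = 0.0198) held in 2 of the 5 fits without 1 library that tested it, with adjusted p up to 0.630. In endothelial-rich barcodes it stood at 167, 281 and 235 CPM against 131, 288, 253 and 176 CPM, and its interaction passed (2.25, adjusted p = 0.00295, and up to 0.281 without 1 library).

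Timp3, an inhibitor of matrix proteases, was the interaction call that passed in all 7 fits without 1 library. In low-endothelial barcodes it stood at 1590, 339 and 237 CPM at 12 months and 1020, 1598, 1638 and 1211 CPM at 3 months, overlapping through 12-month replicate 1. In endothelial-rich barcodes it stood at 1616, 569 and 497 CPM against 211, 752, 610 and 393 CPM. The difference between the ranges was 2.35 ± 0.29 (adjusted p = 6.97e-06). Id3, an inhibitor of differentiation induced by BMP, stood at 513, 83.1 and 166 CPM against 1525, 709, 838 and 562 CPM in low-endothelial barcodes, without overlap (-2.41 ± 0.45, adjusted p = 0.00511). In endothelial-rich barcodes it stood at 1050, 1030 and 1203 CPM against 2245, 956, 1094 and 961 CPM, and its interaction was 2.25 ± 0.34 (adjusted p = 0.000396, and 0.0566 without 12-month replicate 2).

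Over all members together, lower at 12 months were Col3a1 (-2.86 ± 0.40, adjusted p = 0.00144), Flrt2, an adhesion molecule (-1.69), and Slc38a5, an amino acid carrier (-1.30), beside Hypk, Cdk2ap1, Slc7a5, Myof, Ndnf and Auts2 at -1.43 to -1.11. Higher were Atf3 (2.30), Fosb (2.24), Uchl1 (1.80), Pla1a (1.76), Casq2 (1.74), Perp (1.65), Ggt1 (1.59), Pid1 (1.59), Ankrd37 (1.55) and Nodal (1.49). Of 29 pericyte genes 4 passed, all higher (1.12% of all genes were), Enpep, Ggt1, Rgs4 and S1pr3. MHC class I and interferon genes passed in 0 of 11 and 0 of 28, beside 1.56% of all genes, so these counts are near that share. Of 30 named genes 3 passed in all 7 fits without 1 library, Atf3, Fosb and Pla1a.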

How the data were processed

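Per the labels' protocols, cells of CD31-captured microvessels were made into 10x v3.1 libraries. Per the submitters' processing notes and file headers, the authors used Cell Ranger (4.0.0 at 12 months, 6.1.1 at 3 months) and mm10, and deposited raw UMI counts per gene and barcode. The members and lists were chosen with earlier results of these data known. UMI counts were summed per library and range, for libraries with at least 10 members, and tested with edgeR 4.0.16 in R 4.3.3 (TMM, filterByExpr, quasi-likelihood, adjusted p under 0.05). These steps were tested on simulated data. The mix ratios used a pseudocount of 5 CPM. Doublets were scored with scrublet (scanpy 1.11.5) and kept. The named genes of the age comparisons passed the test without overlap of the ages at a mean of at least 50 CPM, and were not gate, predicted, mitochondrial, ribosomal or sex-linked genes. Of these, the 10 highest and 10 lowest were taken, plus up to 4 of each list, and 5 and 5 for the interaction. Level genes were up to 8 per list, and mix genes the 10 farthest on each side. Genes outside these rules, such as Col1a1, Foxf2 and Cdh5, were chosen after their values were seen. Some genes that met these rules are not reported here. Coordinates came from GENCODE (GRCm38), which held 32158 of 32285 gene IDs. Alternatives were other gates, splits, filters, DESeq2 1.42.0, thinned sums, and leaving out each library.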

Additional observations from a re-analysis of the deposited data

Results flagged for a closer look

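Of the values by library, 4 stood apart from the other libraries of their age. They were found among 54 groups tested with a rule that chance meets in about 1 in 20 groups. In 3-month replicate 4, 39.2% of the members were endothelial-rich, against 49.7% to 50.0% in the other 3-month libraries. Over all members, 3-month replicate 1 had 187 CPM of Col3a1 and 169 CPM of Hypk, and 3-month replicate 4 had 173 CPM of Pde8b.

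The age difference of 10 named genes differed between the ranges by the interaction test, given as the endothelial-rich minus the low-endothelial log2 difference with edgeR's adjusted p. It was positive for Id3 (2.25), Timp3 (2.35), Nr4a1 (2.25), Lmcd1 (2.83) and Hbegf (2.67), a growth factor of the EGF family. It was negative for C1qb (-5.51), C1qa (-4.40), Enpp2 (-2.40), Apod (-1.96) and Car4 (-1.26). Adjusted p was 0.0344 for Lmcd1, Hbegf, Enpp2, Apod and Car4. Of the 10 calls, 9 were lost without 12-month replicate 2, 6 without 12-month replicate 3, 9 with the split at 1% and 5 with at least 1000 genes per barcode. Car4, a carbonic anhydrase, stood at 513, 665 and 864 CPM at 12 months and 417, 261, 378 and 466 CPM at 3 months in low-endothelial barcodes. In endothelial-rich barcodes it stood at 383, 548 and 636 CPM against 868, 620, 725 and 671 CPM. Apod, a lipid carrier on the fibroblast list, stood at 103, 62.3 and 73.6 CPM against 32.1, 35.2, 24.0 and 23.9 CPM, and in endothelial-rich barcodes at 100, 94.3 and 103 CPM against 139, 151, 198 and 118 CPM.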

How the results depend on the processing

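The member share by age turned to -0.383 percentage points without 12-month replicate 2, and over the fits without 1 library it ran from -0.383 to 1.80. The endothelial-rich share differed by 2.15 to 15.1 points over the same fits. It differed by 33.1 points with at least 1000 genes per barcode and by 36.1 points after thinning. Both had an unadjusted exact permutation p of 0.0286, the smallest possible, and both settings removed members unevenly between the ages. Over all members the count of 152 was 315 with no filter, 75 with DESeq2, 15 in sums thinned to the smallest, 47 with at least 1000 genes per barcode, and 11 to 450 without 1 library. In low-endothelial barcodes the count of 50 was 154, 20, 0 and 12 under the same settings, 32 with the split at 1%, and 4 to 92 without 1 library. In endothelial-rich barcodes 149 became 297 with no filter, 84 with DESeq2, 12 in thinned sums, and 13 to 482 without 1 library. The interaction count of 26 was 77 with no filter, 13 with DESeq2, 58 with doublet scores removed, 48 with at most 10% mitochondrial UMIs, 137 with the split at 0.25%, and 1 to 58 without 1 library. The cause of these changes was not tested, other than fewer UMIs in thinned sums. For the genes named over all members, in low-endothelial barcodes and in the interaction, and only where a setting let them be tested, 719 values kept their call, 251 fell short of the threshold and 0 reversed. With the replicate number as a block the counts were 326 over all members, 57 in low-endothelial and 326 in endothelial-rich barcodes. Libraries with the same number did not deviate together (correlations of -0.0279 to 0.0705), so they share only a number. With at least 1000 genes per barcode, 12-month replicate 1 kept 2 low-endothelial barcodes and was left out of that fit and of the interaction. Its 19 low-endothelial barcodes set the lowest depth behind the low-endothelial values.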
